A study of Mus musculus with 162 samples.

Results

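A set of 9 genes of the gastric mucus layer was followed through fasting in the mouse stomach and beside it in other organs, namely the trefoil factor genes Tff1, Tff2 and Tff3, the mucin genes Muc1, Muc5ac and Muc6, and the gastrokine genes Gkn1, Gkn2 and Gkn3. They were chosen by symbol, and all 9 were present among the 53686 genes of the count table. The study sequenced mRNA from 9 organs of 18 adult male C57BL/6J mice aged 8 to 9 weeks, with 1 library per organ and mouse. There were 6 groups of 3 mice, and each mouse gave every organ. The control group (0 h) was fed ad libitum, and the other groups had food removed 2, 8, 12, 18 or 22 h before all mice were killed at the same time of day, early in the dark phase. The mice were wild type and received no drug. The organs were stomach (STM), liver (LIV), olfactory bulb (OB), brain (BRN), cerebellum (CBL), brainstem (BST), interscapular brown adipose tissue (iBAT), and perigonadal (pgWAT) and posterior-subcutaneous (psWAT) white adipose tissue.

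Mucins are large, heavily glycosylated proteins. In the stomach, surface mucous cells secrete Muc5ac and gland mucous cells secrete Muc6, and together these form the gel that shields the epithelium from acid and pepsin, while Muc1 stays anchored in the cell membrane. Trefoil factors are small, compact peptides secreted with the mucins that support repair of the epithelium, and gastrokines are small secreted proteins of the gastric epithelium.

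Levels are given as CPM, the count of a gene divided by the total of its library and scaled to a total of 1e6. Retained STM libraries held 6851903 to 13769280 counts, with a median of 8735554. A floor of 3 counts corresponded to 0.218 to 0.438 CPM in these libraries, and this floor covers counting error only. Replicate 3 of 12 h in STM, with 4590060 counts, was 1 of 5 libraries left out for a total over 2 SD under the organ mean on a log10 scale, so 17 STM libraries were used. Without the log scale the rule would have left out 1 library, in psWAT.

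Some libraries stood apart. Replicates 1 and 3 of 18 h in STM were closer to each other than any other STM pair, with a mean chi-square per gene of 4.70 over 15373 genes, against 13.1 for the next pair and a median of 54.2 over pairs of the same time. In the 7 other organs where both were retained, the libraries of the same replicate numbers did not form the closest pair. Whether the 2 STM libraries hold RNA of 2 mice was not tested. They are counted as 2 below unless they are said to be summed. Library names also carry a lane code. Lane 5 held all STM libraries of 0 h and 2 h and replicates 1 and 2 of 8 h, and lane 6 held the rest, so lane and fasting time cannot be told apart except within 8 h. In other organs, 3 libraries had over 3 counts of each of Tff1, Gkn1 and Gkn2, and these 3 are called below the libraries that hold stomach transcripts.

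In the stomach the 9 genes together made up 4.20 to 9.00% of all counts at 0 h, 3.14 to 6.26% at 2 h, 3.83 to 6.66% at 8 h, 3.88 to 4.29% at 12 h, 1.19 to 4.04% at 18 h and 1.33 to 4.65% at 22 h. The range of 18 h lay under that of 0 h, and that of 22 h overlapped it. Per kilobase of exon, the mean level at 0 h was highest for Tff1 at 24469 ± 11789 CPM per kb (SD, n = 3), followed by Gkn2 at 20997 ± 11247 and Gkn1 at 15025 ± 6701. The ranges of these 3 overlapped. Tff2 came next at 7526 ± 708 CPM per kb, and its highest value, 8298, lay under the lowest of Gkn1, 9306. Gkn3 stood at 847 ± 274 CPM per kb and Muc5ac at 338 ± 56.9, with no overlap between them. Muc1 at 148.7 ± 24.9 and Muc6 at 113.7 ± 70.5 CPM per kb overlapped, and Tff3 was last at 2.86 ± 2.02. The long mucin transcripts thus stood below the short secreted peptides on this scale, Tff3 apart.

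The members lie in clusters on the mouse genome (GRCm38). Tff3 (chr17:31125306-31129646), Tff2 (chr17:31141049-31144282) and Tff1 (chr17:31161395-31165277) follow each other on the minus strand, with 11402 and 17112 bases between them. Gkn1 (chr6:87345650-87350942), Gkn2 (chr6:87373357-87379497) and Gkn3 (chr6:87383256-87388935) are 22414 and 3758 bases apart, Gkn2 on the plus strand and the others on the minus strand. Muc6 (chr7:141633456-141655319) and Muc5ac (chr7:141788972-141819231) lie 133652 bases apart on opposite strands, and Muc1 (chr3:89229057-89233381) lies alone. Tff1 overlaps Gm15318 on the other strand, a gene with a mean of 255 CPM in STM.

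The comparison of fasting times asked which of these genes changed in the stomach as the fast lengthened. Tff2 and Gkn3 fell furthest and were lower in every late library, and Gkn2 and Muc5ac fell by a smaller amount that depended on single libraries. Tff1, Gkn1, Muc1, Muc6 and Tff3 did not pass the test. Lower RNA from a gene in whole stomach may mean fewer cells of a type or less RNA per cell, and in bulk libraries these cannot be told apart.

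Tff2, the trefoil factor of mucous neck and gland cells, had 4306, 4033 and 4846 CPM at 0 h and 6349, 2824 and 2360 CPM at 2 h. It had 4006, 1077 and 1809 CPM at 8 h and 1993 and 1844 CPM at 12 h. At 18 h it had 702, 1738 and 730 CPM, and at 22 h 1692, 851 and 1053 CPM. All 6 libraries of 18 and 22 h lay under all 3 of 0 h, as did all 5 of 8 and 12 h, of which replicate 1 of 8 h was only just below the fed mice. The mean went from 4395 ± 414 CPM (SD, n = 3) at 0 h to 1128 ± 472 CPM (n = 6) at 18 and 22 h.

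Gkn3, the gastrokine of the same cells, had 543, 990 and 643 CPM at 0 h and 2159, 601 and 497 CPM at 2 h. It had 667, 94.8 and 107 CPM at 8 h and 186.99 and 21.998 CPM at 12 h. The values at 18 h were 62.04, 52.2 and 59.7 CPM, and those at 22 h were 111.5, 104.5 and 78.5 CPM. Every library of 18 and 22 h lay under every library of 0 h, and the 6 were close to each other. Replicate 1 of 2 h was the highest of all, and replicate 1 of 8 h lay inside the range of the fed mice. The mean went from 725 ± 234.8 CPM (SD, n = 3) at 0 h to 78.1 ± 24.8 CPM (n = 6) at 18 and 22 h. Over all genes tested, 764 of 16281 (4.69%, where chance gives 1.19%) had all 6 late libraries under all 3 of 0 h, and 2 of the 9 members did, Tff2 and Gkn3.

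Gkn2, a gastrokine of surface mucous cells, had 12815, 10158 and 26665 CPM at 0 h and 14007, 7322 and 10027 CPM at 2 h. It had 18736, 9472 and 10588 CPM at 8 h and 9234 and 11492 CPM at 12 h. The values were 1639, 9352 and 1684 CPM at 18 h and 10315, 5522 and 2525 CPM at 22 h. Of the 6 late libraries, 5 lay under the lowest of 0 h, and replicate 1 of 22 h lay inside the range of the fed mice.

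Gkn1, the other gastrokine of surface mucous cells, had 16715, 11632 and 27998 CPM at 0 h and 18031, 8126 and 12498 CPM at 2 h. It had 20775, 13542 and 14081 CPM at 8 h and 12243 and 15735 CPM at 12 h. The values were 3609, 14897 and 3820 CPM at 18 h and 14397, 6646 and 4702 CPM at 22 h. Replicate 2 of 18 h and replicate 1 of 22 h lay among the fed mice, and the other 4 late libraries lay under them. No library of 8 or 12 h was under the lowest of 0 h.

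Tff1, the trefoil factor of surface mucous cells, had 15918, 9630 and 26056 CPM at 0 h and 15850, 7751 and 11656 CPM at 2 h. It had 17847, 10426 and 11146 CPM at 8 h and 10843 and 11864 CPM at 12 h. The values were 4445, 11882 and 4477 CPM at 18 h and 15130, 4822 and 3922 CPM at 22 h. The same 2 late libraries as for Gkn1 lay among the fed mice.

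Muc5ac, the gel-forming mucin of surface mucous cells, had 4292, 3532 and 3081 CPM at 0 h and 3825, 3248 and 3743 CPM at 2 h. It had 3673, 2574 and 1823 CPM at 8 h and 2910 and 1285 CPM at 12 h. The values were 681, 1789 and 694 CPM at 18 h and 3591, 1347 and 521 CPM at 22 h. Replicate 1 of 22 h was the only late library inside the range of 0 h, and 4 of the 5 libraries of 8 and 12 h lay under that range.

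Muc6, the gel-forming mucin of gland cells, had 1062, 1725 and 405 CPM at 0 h, a spread of 4.26 times between the fed mice. At 18 and 22 h it ranged from 295 to 1011 CPM with a median of 561 CPM. Only 2 of the 6 late libraries lay under the lowest of 0 h. Muc1, the membrane-bound mucin, had 410, 294 and 343 CPM at 0 h and from 157.04 to 400 CPM at 18 and 22 h, with a median of 210 CPM. For Muc1, 4 late libraries lay under the range of the fed mice. Tff3, mainly a product of intestinal goblet cells, was near the floor, with 2 to 190 counts per library. It had 0.264, 2.101 and 1.86 CPM at 0 h and 0.343 to 2.92 CPM at 18 and 22 h, and replicate 1 of 2 h stood alone at 16.8 CPM.

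**Figure D1:**
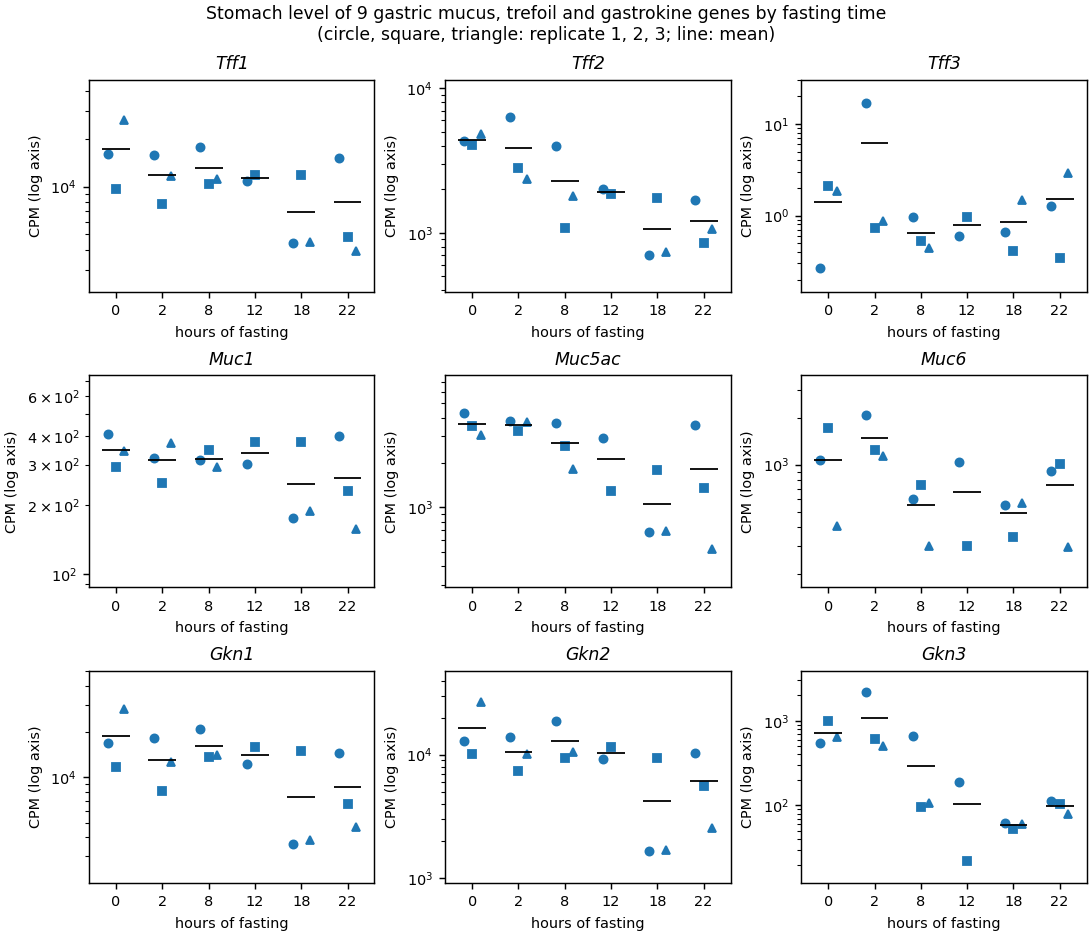
CPM of the 9 genes in 17 stomach libraries (log axes) by hours of fasting, with a symbol for each replicate number and a line at the mean of each time. Tff2 and Gkn3 at 18 and 22 h lay under all 3 libraries of 0 h.

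In a joint test of the 6 time points (edgeR quasi-likelihood, adjusted p under 0.05 by Benjamini-Hochberg), 1067 of 16281 genes (6.55%) were called in STM. All 9 members passed the filter on low counts and 2 of them were called, Gkn3 (adjusted p = 0.0338) and Tff2 (adjusted p = 0.0356). Both lost their call without that filter, where 1500 of 26829 genes were called. These joint calls depended on single libraries, since Gkn3 was called in 10 and Tff2 in 6 of 17 fits that each left out 1 library. Gkn3 lost its call without replicate 1 or 3 of 0 h, replicate 1 of 2 h, any replicate of 18 h or replicate 3 of 22 h, with adjusted p up to 0.102. Tff2 lost its call without replicate 1 or 3 of 0 h, any replicate of 2 h, replicate 3 of 8 h, replicate 2 of 12 h, replicate 1 or 3 of 18 h, or replicate 2 or 3 of 22 h, with adjusted p up to 0.110. The share of genes called was 0.701% without replicate 3 and 0.718% without replicate 1 of 18 h, and 0.768% with these 2 near-identical libraries summed into 1, when no member was called. The count of genes was 1742 without replicate 2 and 667 without replicate 1 of 0 h. Leaving out replicate 1, 2 or 3 of 2 h gave 460, 633 or 425, and leaving out replicate 1 of 8 h gave 617. The fit by DESeq2 called 2805 genes and 3 members, Tff3 (adjusted p = 0.0392) being the third. Tff3 had 2 to 190 counts per library, the 190 in replicate 1 of 2 h, and DESeq2 was not run without that library.

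For 18 and 22 h against 0 h, where a call also required a log2 fold change beyond 1, 1155 of 16281 genes (7.09%) were called. Of these 557 were higher and 598 (3.67% of the genes tested) lower. Among the 9 members 4 were called, all lower. Gkn3 fell by a log2 fold change of −3.39 (SE 0.69, adjusted p = 0.00944), and Tff2 by −2.12 (SE 0.40, adjusted p = 0.00530). Gkn2 fell by −1.87 (SE 0.56, adjusted p = 0.0341) and Muc5ac by −1.50 (SE 0.49, adjusted p = 0.0492). The log2 fold change was −1.40 for Gkn1 (SE 0.49, adjusted p = 0.0632) and −1.37 for Tff1 (SE 0.49, adjusted p = 0.0628), neither called. It was −0.90 for Muc6 (SE 0.50, adjusted p = 0.224), −0.59 for Muc1 (SE 0.31, adjusted p = 0.198) and −0.49 for Tff3 (SE 0.91, adjusted p = 0.738). All 9 values were negative, with a median of −1.40 beside −0.00308 over all genes tested. Scaling by total counts without normalization factors moved the median over all genes to 0.15, called 717 genes higher and 308 lower, and kept 3 members, without Muc5ac.

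The calls of Tff2 and Gkn3 held in all 17 fits that left out 1 library and with the 2 near-identical libraries summed, where Gkn3 was at −3.40 (adjusted p = 0.0247) and Tff2 at −2.003 (adjusted p = 0.0159). Gkn2 kept its call in 11 of 17 such fits, with log2 fold changes from −2.56 to −1.23. It lost it without replicate 1 or 3 of 0 h, 1 or 3 of 18 h, or 2 or 3 of 22 h (adjusted p up to 0.246), and with the pair summed (log2 fold change −1.67, adjusted p = 0.0708). Muc5ac kept its call in 4 of 17 fits, those without replicate 1 or 2 of 12 h, replicate 2 of 18 h or replicate 1 of 22 h, and had an adjusted p of up to 0.142 in the others and 0.0993 with the pair summed. Tff1 and Gkn1 were each called in 3 fits, without replicate 2 of 0 h, replicate 2 of 18 h or replicate 1 of 22 h. Over the 17 fits the log2 fold change ran from −1.88 to −0.85 for Tff1 and from −1.91 to −0.89 for Gkn1. It ran from −1.25 to −0.48 for Muc6 and from −0.94 to −0.13 for Tff3. The count over all genes was 283 without replicate 3 of 0 h and 1849 without replicate 2 of 0 h. With all 18 STM libraries or without the filter on low counts, Tff2 and Gkn3 were the 2 members called.

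A fit with lane as a factor rests on 8 h, the only time in both lanes. It called 0 genes by edgeR in the joint test and 0 for 18 and 22 h against 0 h, with 845 and 1116 genes at unadjusted p under 0.05, and DESeq2 was not run with lane. In that fit Gkn3 was at −1.54 (SE 1.30), Tff2 at −1.58 (SE 0.83), Gkn2 at −1.37 (SE 1.16) and Muc5ac at −0.61 (SE 1.00) in log2 fold change. The values of Muc6 (0.41, SE 0.98) and Tff3 (0.33, SE 1.96) turned positive, and no adjusted p was under 0.736.

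**Figure D2:**
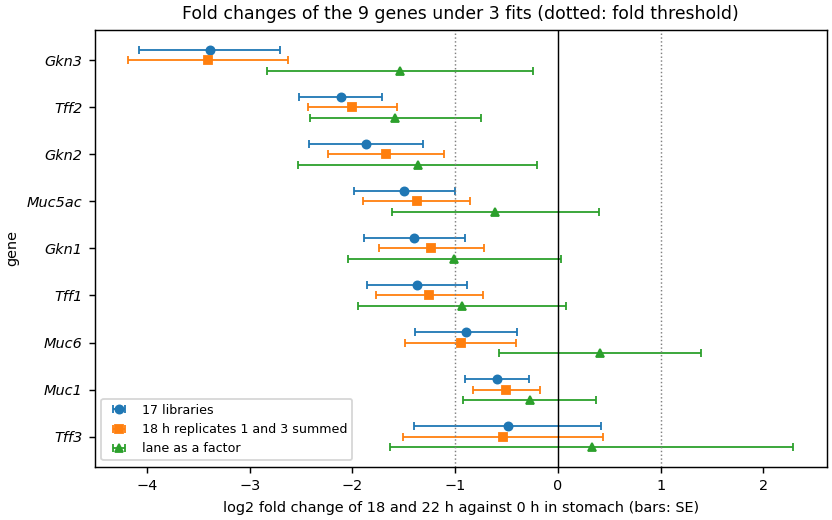
Log2 fold change of 18 and 22 h against 0 h in stomach for the 9 genes, with bars of 1 SE, in the fit of 17 libraries, with the 2 near-identical libraries of 18 h summed, and with lane as a factor. Gkn3 and Tff2 were lowest in the first 2 fits.

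At 8 and 12 h against 0 h, edgeR called 0 genes (0.0%) and 0 members, with 757 genes at unadjusted p under 0.05, and DESeq2 called 2 genes, no member among them. The log2 fold change was −2.11 for Gkn3 (SE 0.72) and −1.17 for Tff2 (SE 0.43), both with an adjusted p of 0.946. At 2 h against 0 h, edgeR again called 0 genes (0.0%) and 0 members, with 1054 genes at unadjusted p under 0.05, and DESeq2 called 2 genes, no member among them. Tff3 had the largest value at 2 h, 1.93 (SE 1.01, adjusted p = 0.748), which rests on replicate 1. These comparisons share the 3 libraries of 0 h with the late one. Without replicate 2 of 0 h the counts were 7 at 8 and 12 h and 5 at 2 h.

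Other genes of the mucous cells and of the making of mucus were read in the late comparison. For these lists, fell and rose mean called lower and called higher. Over all 16281 genes tested, 598 (3.67%) were called lower and 557 higher by edgeR. There were 5266 at unadjusted p under 0.05 and 8172 with a negative value, and DESeq2 called 1472 (9.04%). Of 10 symbols listed for other surface mucous cell genes, 9 were in the table and all 9 passed the filter. Mucl3 was not in the table under that symbol, and its older symbol Dpcr1 was. Of the 9 tested, 4 fell and 0 rose, with a median log2 fold change of −0.94. Anxa10 fell by −1.62 (SE 0.42, adjusted p = 0.0210), Ctse, the aspartic protease cathepsin E, by −1.44 (SE 0.45, adjusted p = 0.0417), Vsig1, a junction protein of the gastric epithelium, by −1.43 (SE 0.44, adjusted p = 0.0418), and Sult1c2, a sulfotransferase, by −1.09 (SE 0.33, adjusted p = 0.0386). Of 23 enzymes of mucin glycosylation, 20 passed the filter and 9 fell, with a median of −1.13. Of these 20, 19 had a negative value and 16 were at unadjusted p under 0.05. St6galnac1 had no count in STM. C1galt1, which builds the core O-glycan, fell by −1.10 (SE 0.28, adjusted p = 0.0164), and its chaperone C1galt1c1 by −1.50 (SE 0.33, adjusted p = 0.00955). Galnt7, a transferase of the first steps of O-glycosylation, fell by −1.38 (SE 0.33, adjusted p = 0.0142), and B4galnt3 by −1.80 (SE 0.44, adjusted p = 0.0181).

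Of 10 genes of mucin folding and the secretory pathway, 9 passed the filter, 4 fell and 0 rose, with a median of −0.87. Agr2, a protein disulfide isomerase needed to fold mucins, ranged from 617 to 979 CPM at 0 h and from 106 to 246 CPM at 18 and 22 h, with no overlap. It fell by −2.32 (SE 0.35, adjusted p = 0.00232). Creb3l4 fell by −1.64 (SE 0.31, adjusted p = 0.00522), Xbp1, a transcription factor of the secretory pathway, by −1.05 (SE 0.22, adjusted p = 0.00711), and Bcas1 by −1.35 (SE 0.42, adjusted p = 0.0435). Of 11 other mucin genes, 6 passed the filter and 0 were called by edgeR (2 at unadjusted p under 0.05) or by DESeq2, with a median of −0.15, and Muc2, the intestinal gel-forming mucin, had no count in STM. Muc4 had the smallest adjusted p there (log2 fold change −2.06, SE 0.78, adjusted p = 0.0897), followed by Muc16 (2.99, SE 1.28, adjusted p = 0.115), Muc13 (−1.14, adjusted p = 0.487) and Muc15 (0.74, adjusted p = 0.521). Of 12 transcription factors of the stomach, all passed the filter, 2 fell and 1 rose, with a median of −0.76. Foxa1 fell by −1.37 (SE 0.28, adjusted p = 0.00753) and Pdx1, which marks the antrum and duodenum, by −2.60 (SE 0.74, adjusted p = 0.0321), while Barx1, a factor of the stomach mesenchyme, rose by 1.05 (SE 0.27, adjusted p = 0.0175). Sox21 had a value of −0.62 (SE 0.19, adjusted p = 0.0381) and did not reach the fold threshold.

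Markers of other cell types moved in the same libraries, and their part in the fall of Tff2, Gkn3, Gkn2 and Muc5ac was not tested. The marker counts stand beside 598 of 16281 genes (3.67%) called lower and 557 called higher by edgeR in the late comparison. Over all genes, 5266 were at unadjusted p under 0.05 and DESeq2 called 1472 (9.04%). Pancreatic acinar markers summed to 227, 124.1 and 551 CPM at 0 h and to 12.4 to 56.8 CPM (median 23.8) at 18 and 22 h. Of 8 such genes 7 passed the filter and 6 were called lower, with a median log2 fold change of −5.67, and the most abundant, Cela1, fell by −3.22 (SE 0.56, adjusted p = 0.00549). Intestinal markers summed to 469, 763 and 470 CPM at 0 h and to 65.8 to 256 CPM (median 100.8) late. Of 10 intestinal genes 7 passed the filter and 4 were called lower, with a median of −2.57, the most abundant being Clca1 (−2.57, SE 0.80, adjusted p = 0.0494). At 8 h, the acinar sum was 190 CPM in replicate 1 and 29.8 and 51.5 CPM in replicates 2 and 3, and the intestinal sum was 680, 106 and 232.5 CPM. The library of 8 h that was high in Tff2 and Gkn3 was thus also the high one for both sums.

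Smooth muscle markers summed to 8517, 8947 and 6025 CPM at 0 h and to 7514 to 23096 CPM (median 15397) late, and 0 of 7 were called by edgeR in the late comparison (4 at unadjusted p under 0.05, 2 by DESeq2), with a median of 0.66. Their most abundant gene, Myh11, had a log2 fold change of 1.08 (SE 0.36, adjusted p = 0.0511). Replicates 1 and 3 of 18 h, which were low in Gkn1, Tff1 and Muc5ac, had smooth muscle sums of 17144 and 17148 CPM, and replicate 2 had 7514 CPM. Parietal markers went from 5882 to 7909 CPM at 0 h to 1938 to 7755 CPM late, with 2 of 6 called lower and a median of −1.03 (Atp4a −0.94, adjusted p = 0.0811). General epithelial markers had 1 of 5 called lower and a median of −0.91 (Krt8 −0.98, adjusted p = 0.0917). Gastric endocrine markers had 3 of 7 called lower and a median of −0.83 (Ghrl −0.66, adjusted p = 0.115).

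Of 7 chief cell markers 5 passed the filter and 1 was called lower, with a median of −0.89 (Pgc −0.50, adjusted p = 0.430). Cblif was not in the table under that symbol, its older symbol Gif was, and Lipf had no count in STM. Forestomach squamous markers had 1 of 10 called lower and a median of 0.61 (Lor 0.80, adjusted p = 0.326), and their sums went from 2008 to 6250 CPM at 0 h to 890 to 9072 CPM late. Arterial endothelial markers had 0 of 6 called by edgeR (1 at unadjusted p under 0.05, 1 by DESeq2) and a median of 0.36 (Pecam1 0.17, adjusted p = 0.551), and leukocyte markers had 0 of the 3 that passed the filter called by edgeR (1 at unadjusted p under 0.05, 0 by DESeq2), with a median of 0.08 (Lyz2 −0.65, adjusted p = 0.128). Mitochondrial transcripts made up 2.83 to 9.57% of counts at 0 h, 5.37 to 8.39% at 2 h, 5.27 to 9.11% at 8 h, 13.1 to 13.3% at 12 h, 11.0 to 15.8% at 18 h and 11.0 to 24.4% at 22 h, so the share was already over that of 0 h at 12 h.

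**Figure D3:**
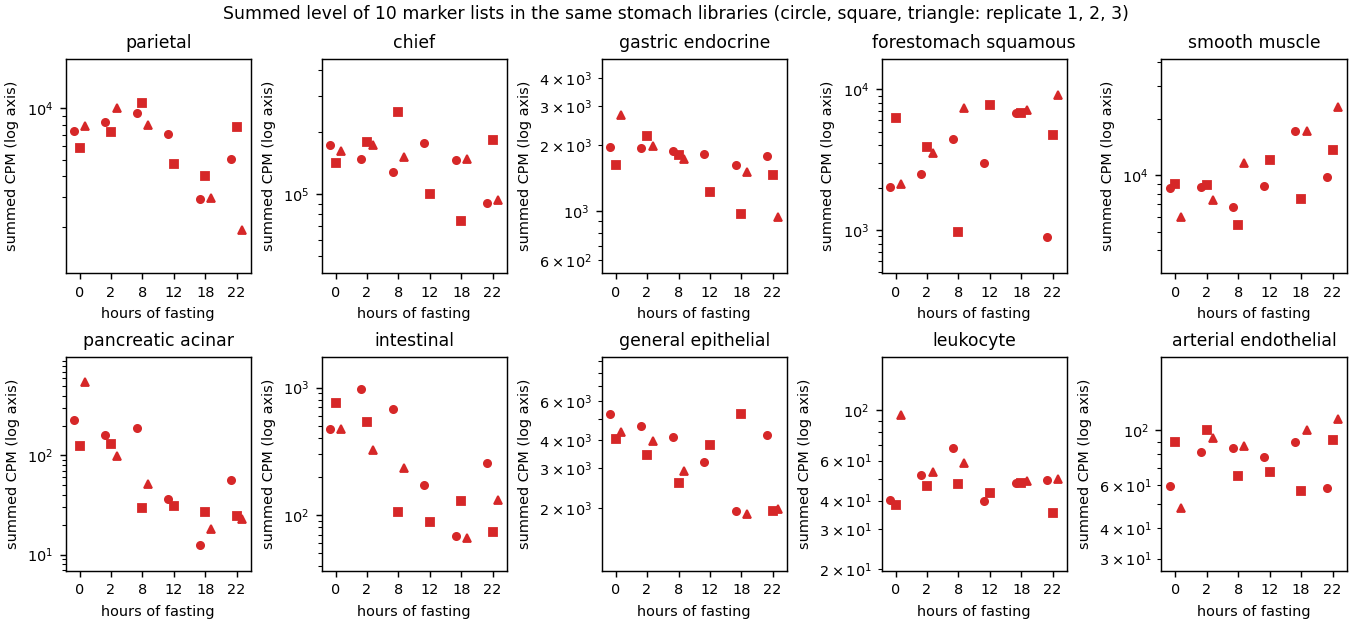
Summed CPM of 10 lists of cell type markers (log axes) by hours of fasting in the same 17 stomach libraries, with a symbol for each replicate number. Acinar and intestinal sums were lower in all 6 libraries of 18 and 22 h than in the 3 of 0 h.

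Of 36 pairs of members, 19 (52.8%) passed at an adjusted permutation p under 0.05 over the libraries. After the mean of each time was taken away, 15 (41.7%) passed. All had a positive r, and Gkn1, Gkn2 and Tff1 varied together most closely. In the second test the deviations were permuted over all 17 libraries as if no means had been taken away. Its p-values are therefore too small, and 15 may be too many. Among all pairs of the 16281 genes, 11.7% had an r as far from 0 as the smallest that passed (0.591), and 15.6% after the time means were taken away (0.558), so such values were common in these libraries. For positive r alone the shares were 8.08% and 11.3%. All members but Tff3 ranked 237 or higher by mean CPM in STM, and abundant genes carry less counting error. The difference between these shares was not tested, nor was the part of cell types whose markers differed between libraries. The pairs printed here were chosen after their values were seen. Over 17 STM libraries and 36 pairs of members, permutation tests of Pearson's r on log2 CPM gave p = 1e-05, the smallest the 100000 permutations allow, for Gkn1 with Gkn2 (r = 0.981, adjusted p = 9e-05, rho = 0.941 with permutation p = 1e-05). After the mean of each time was taken away, r was 0.979 for this pair, and without the 2 libraries farthest from the median it was 0.968. Within lanes it was 0.969 in lane 5 and 0.983 in lane 6. Tff1 with Gkn1 gave r = 0.969 and rho = 0.968 (permutation p = 1e-05 for both, adjusted p = 9e-05), 0.960 after the time means were taken away, 0.963 without 2 libraries, and 0.981 and 0.954 within the lanes. These 3 surface cell products were thus high or low together also among mice of the same fasting time.

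Muc1 with Gkn1 gave r = 0.876 and rho = 0.743 (permutation p = 3e-05 and 9.7e-04, adjusted p = 1.8e-04 for r), 0.843 after the time means were taken away, 0.797 without 2 libraries, and 0.491 and 0.947 within the lanes. Muc5ac with Gkn2 gave r = 0.837 and rho = 0.674 (permutation p = 1.7e-04 and 0.00378, adjusted p = 5.4e-04 for r), 0.712 after the time means were taken away, 0.718 without 2 libraries, and 0.104 and 0.843 within the lanes. Tff2 with Gkn1 gave r = 0.782 and rho = 0.713 (permutation p = 1.5e-04 and 0.00175, adjusted p = 5.4e-04 for r), 0.734 after the time means were taken away, 0.741 without 2 libraries, and 0.456 and 0.948 within the lanes. Within times r for Tff2 was 0.734 with Gkn1 and 0.595 with Gkn3, and the difference between pairs or between lanes was not tested.

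Tff2 with Gkn3 gave r = 0.829 and rho = 0.819 (permutation p = 1e-04 and 1.2e-04, adjusted p = 5.14e-04 for r). It gave 0.760 without 2 libraries, 0.918 in lane 5 and 0.0857 in lane 6. After the time means were taken away it was 0.595, and 0.280 without 2 libraries, so within times the relation rests on those libraries. Tff2 with Muc1 passed with the smallest r, 0.591, and rho = 0.449 (permutation p = 0.0132 and 0.0731, adjusted p = 0.0249 for r), and gave 0.420 after the time means were taken away (adjusted p = 0.173), 0.618 without 2 libraries, −0.0541 in lane 5 and 0.838 in lane 6, so its sign was not held in both lanes. Muc5ac with Gkn3 gave r = 0.733 and rho = 0.816 (permutation p = 9.2e-04 and 1.4e-04, adjusted p = 0.00207 for r), 0.765 without 2 libraries, and 0.674 and 0.432 within the lanes. After the time means were taken away it was 0.405 (permutation p = 0.106, adjusted p = 0.181) and did not pass. Gkn1 with Gkn3, of the same family and chromosome region, gave r = 0.445 and rho = 0.407 (permutation p = 0.0750 and 0.106, adjusted p = 0.117 for r), 0.146 after the time means were taken away, 0.302 without 2 libraries, and 0.170 and 0.00108 within the lanes. Muc6 with Gkn1 gave r = 0.0804 and rho = 0.0123 (permutation p = 0.758 and 0.966, adjusted p = 0.792 for r), −0.149 after the time means were taken away, −0.181 without 2 libraries, and −0.584 and −0.0908 within the lanes.

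With the 2 near-identical libraries of 18 h summed (n = 16), 18 of 36 pairs passed the permutation test. After the time means were taken away 14 passed, by the same free permutation of deviations, so 14 may be too many. Tff2 with Muc1 was then at 0.513 (adjusted permutation p = 0.0797) and no longer passed. In the order above, r was 0.976, 0.970, 0.848, 0.798, 0.737, 0.823 and 0.718 for the other printed pairs that had passed, with adjusted permutation p of at most 0.00327, and 0.389 and 0.0386 for the last 2 pairs. Muc5ac with Gkn2 went to 0.407 when the 2 libraries farthest from the median were also left out.

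Among all genes kept, the 3 closest to each member by Pearson's r of log2 CPM over the 17 STM libraries were as follows, given as a description. Tff1 was closest to Hsd17b11 (r = 0.975), Gkn1 (0.969) and Gal3st1 (0.961), and Gkn1 to Gkn2 (0.981), Tff1 (0.969) and Paqr5 (0.966). Gkn2 was closest to Gkn1 (0.981), 0610040J01Rik (0.977) and Cyp2c65 (0.972). Of these 3, Gkn1 was thus among the closest genes of both others. Gkn3 was closest to Aqp5 (0.971), Klk1 (0.968) and Fut8 (0.937). Aqp5, a water channel, ranged from 37.4 to 47.2 CPM at 0 h and from 4.53 to 13.9 CPM at 18 and 22 h and fell by −2.53 (SE 0.45, adjusted p = 0.00531). Tff2 was closest to Mpst (0.948), the acinar marker Cela1 (0.940) and Anxa3 (0.940). Muc5ac was closest to Fer1l6 (0.974), the stomach claudin Cldn18 (0.971) and Pls1 (0.965), and Muc1 to Shisa5 (0.956), Vsig2 (0.937) and Prss8 (0.934). Muc6 had weaker neighbours, Uhrf1bp1l (0.858), Pcsk7 (0.856) and Slc39a14 (0.854). Tff3 followed 2310057J18Rik (0.847), Prap1 (0.820) and Reg1 (0.761).

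Because Gkn1 and Gkn2 varied together so closely, the sequences just before their starts are shown, from RefSeq promoters on GRCm38.p6, in which 5 of 9 members matched (Muc1, Muc6, Gkn1, Gkn2 and Gkn3, without Tff1, Tff2, Tff3 and Muc5ac). Both strands of the 250 bases before the start were searched for TATAAA (held by 12.4% of 32851 promoters), TGTTTAC, a forkhead motif (3.17%), AGATAA, a motif of GATA factors (9.99%), and the E-box CACGTG (6.02%), motifs that do not overlap here. Capitals mark AGATAA in both sequences and TATAAA in that of Gkn2, the former beginning 82 bases before the RefSeq start of Gkn1 and 218 before that of Gkn2, the latter 29 bases before it. The sequences shown end 27 bases (Gkn1) and 8 bases (Gkn2) before the RefSeq start, where the Gencode gene begins. The stretches are chr6:87350943-87351165 (minus strand) and chr6:87373115-87373356 (plus strand). Muc1 held TATAAA 31 bases before its start and Muc6 held AGATAA 194 bases before it, and the window of Gkn3 held none of the 4.
Gkn1: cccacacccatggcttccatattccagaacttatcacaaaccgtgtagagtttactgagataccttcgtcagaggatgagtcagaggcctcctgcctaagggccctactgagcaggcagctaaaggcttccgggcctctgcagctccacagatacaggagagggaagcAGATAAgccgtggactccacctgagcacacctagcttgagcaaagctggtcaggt
Gkn2: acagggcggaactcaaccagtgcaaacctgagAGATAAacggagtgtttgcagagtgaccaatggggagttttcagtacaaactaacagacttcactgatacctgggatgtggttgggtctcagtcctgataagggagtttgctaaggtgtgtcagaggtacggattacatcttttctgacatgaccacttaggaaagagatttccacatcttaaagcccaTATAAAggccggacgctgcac

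Outside the stomach the members were low or absent. Of 140 retained libraries of other organs, 88 had no count of Tff1, Gkn1 or Gkn2, 12 had over 3 counts of at least 1 of them, and 3 had over 3 counts of each. The other 9 had over 3 counts of 1 of them only, the highest being 16 counts of Gkn1 in replicate 2 of 22 h in BRN, which also held 18 of Tff2. The first of the 3 libraries with over 3 counts of each was replicate 2 of 8 h in iBAT. This library had 895 counts of Tff1, 1430 of Gkn1, 1414 of Gkn2, 499 of Tff2 and 222 of Gkn3. In it the 9 genes made up 0.0298% of counts (95% Wilson interval 0.0290 to 0.0307%). It held 0.349 counts of Tff2 per count of Gkn1, and the stomach of the same mouse held 0.0795, where STM libraries ranged from 0.0795 to 0.352. The second was replicate 2 of 18 h in pgWAT, with 80 counts of Tff1 and 216 of Gkn1 (0.00788%, 0.00721 to 0.00860%), and a ratio of 0.0231, from 5 counts of Tff2, beside 0.117 in the stomach. The third was replicate 3 of 8 h in LIV, with 44, 48 and 34 counts of Tff1, Gkn1 and Gkn2 (0.00153%, 0.00131 to 0.00178%), and a ratio of 0.0625, from 3 counts of Tff2, beside 0.128 in the stomach.

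Gkn3 was over the floor of 3 counts in most libraries of 7 other organs, and Muc1 in part of the libraries of all 8. Tff2 was over it in 8 of 16 BRN libraries (mean 0.552 ± 0.655 CPM) and 5 of 18 in LIV, in 4 of 17 in iBAT and in 1 library each of OB, pgWAT and psWAT, the last with 35 counts. The Gkn3 mean was 4.72 ± 1.29 CPM (SD, n = 18) in BST, 4.48 ± 1.47 CPM (n = 18) in CBL, 3.20 ± 1.56 CPM (n = 16) in BRN and 2.91 ± 0.97 CPM (n = 18) in OB. It was 2.51 ± 1.18 CPM (n = 18) in pgWAT, 2.30 ± 2.16 CPM (n = 17) in psWAT and 1.74 ± 3.17 CPM (n = 17) in iBAT, or 0.992 ± 0.719 CPM (n = 16) in iBAT without the library that holds stomach transcripts. No LIV library had more than 3 counts. Between neighbours in the order of mean log2 CPM, CBL stood over OB in 15 of 18 mice (mean log2 difference 0.54, SD 0.56, 2-sided paired permutation p = 8.1e-04, adjusted p = 0.00972 over 12 neighbour pairs of Gkn3 and Muc1). The other neighbours did not differ beyond their spread, and with a pseudocount of 1 CPM, where CBL and OB were no longer neighbours, 0 pairs passed the permutation test.

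Muc1 had means from 0.412 ± 0.276 CPM (SD, n = 18) in CBL to 2.12 ± 1.93 CPM (n = 17) in psWAT, and no neighbours differed by the permutation test in its order of 7 organs, those with most libraries over the floor. CBL, with 6 of 18, was not in that order and was not tested. Tff3 was over the floor in all 18 LIV libraries, at 4.65 ± 4.20 CPM (SD, n = 18), beside 1.95 ± 3.90 CPM (n = 17) in STM. The STM mean rests on replicate 1 of 2 h and was 1.02 ± 0.737 CPM (n = 16) without it, and the medians were 3.34 CPM in LIV and 0.875 CPM in STM. In LIV it had 2.35, 1.94 and 8.99 CPM at 0 h, 0.952, 8.59 and 6.62 CPM at 2 h, and 1.41, 0.733 and 1.52 CPM at 8 h. It had 4.53, 7.11 and 1.53 CPM at 12 h, 3.45, 17.8 and 6.14 CPM at 18 h, and 4.04, 2.70 and 3.23 CPM at 22 h. All 3 libraries of 8 h lay under every library of 0 h, as for 1006 of 14023 genes (7.17%, where chance gives 5%) and 1 of 2 members tested, and the joint test given below did not call it.

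**Figure D4:**
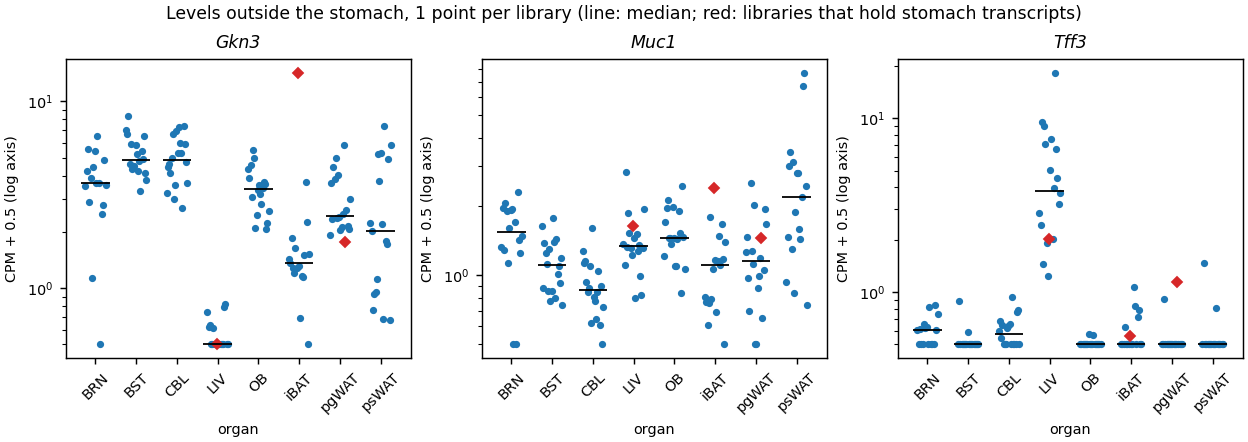
CPM plus 0.5 (log axes) of Gkn3, Muc1 and Tff3 in each retained library of the 8 organs other than stomach, with a line at the median and the 3 libraries that hold stomach transcripts as red diamonds. Gkn3 in iBAT was highest in such a library, at 13.7 CPM.

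In joint tests of the 6 time points within organs (edgeR quasi-likelihood), Gkn3 was called in OB, with an adjusted p of 0.0141, where 2568 of 16742 genes (15.3%) and 1 of 2 members tested were called. Gkn3 in OB had 3.83, 3.39 and 4.09 CPM at 0 h, 2.58, 4.96 and 4.46 CPM at 2 h, and 1.61, 1.98 and 2.85 CPM at 8 h. It had 3.06, 2.67 and 2.32 CPM at 12 h, 2.92, 3.21 and 3.12 CPM at 18 h, and 1.58, 1.73 and 2.09 CPM at 22 h. All 12 libraries of 8 to 22 h lay under all 3 of 0 h, as for 56 of 16742 genes (0.334%, where chance gives 0.220%) and 1 of 2 members tested, a count made after these values were seen. For 18 and 22 h against 0 h, Gkn3 in OB had a log2 fold change of −0.66 (SE 0.21, adjusted p = 0.0825), which passed neither threshold. In OB, as in LIV, lanes are split by fasting time as in STM, with 8 h in both. With lane as a factor, a fit in which the lane effect rests on 8 h, Gkn3 in OB kept its call (adjusted p = 0.0278), and the genes called went from 2568 to 1178 in OB and from 2244 to 294 in LIV. In iBAT, Gkn3 was called with an adjusted p of 0.0453, 1 of 2 members tested beside 4212 of 14529 genes (29%), but not without replicate 2 of 8 h, the library with stomach transcripts (adjusted p = 0.231), nor with the left-out iBAT library put back (0.125), nor with a replicate block (0.111). Its log2 fold change at 18 and 22 h against 0 h was −0.01 in iBAT (SE 0.72, adjusted p = 0.997). In LIV 0 of 2 members (Tff3 and Muc1) were called by edgeR or DESeq2, beside 16.0% of genes called by edgeR, and Tff3 had an adjusted p of 0.217. At unadjusted p under 0.05 by edgeR, 0 of these 2 members stood beside 4941 of 14023 genes. By DESeq2, Tff3 had an unadjusted p of 0.0374, beside 5309 genes under 0.05.

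In BRN 0 of 2 members (Gkn3 and Muc1) were called beside 0.00597% of genes, in BST 0 of 1 (Gkn3) beside 0.107%, and in CBL 0 of 1 (Gkn3) beside 2.99%, and DESeq2 called no member there. At unadjusted p under 0.05 by edgeR there were 0, 1 and 0 members beside 2780, 1869 and 3801 genes. Gkn3 in BST had 6.56, 6.15 and 7.85 CPM at 0 h and 2.81 to 6.00 CPM in the fasted mice, with no overlap. How many other genes did so in BST was not counted. Its log2 fold change by edgeR at 18 and 22 h against 0 h was −0.72 (SE 0.19, adjusted p = 0.175). In pgWAT and psWAT edgeR called 0 of 2 members (Gkn3 and Muc1) and 0 genes in all (0.0% in each), with 1694 and 3192 genes at unadjusted p under 0.05, and DESeq2 called 556 and 2053 genes, no member among them.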

How the data were processed

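The authors aligned TruSeq stranded mRNA reads with TopHat2 2.1.1 to GRCm38.p5 and counted them per gene with HTSeq 0.9.1, and raw counts were deposited for 162 libraries. Totals of the retained libraries ran from 3045845 to 27801717, and 5 libraries with totals over 2 SD under their organ mean on a log10 scale were left out. The study gives a rule of 2 SD without naming a log scale, and on totals without log it would leave out 1 library. Genes with the CPM equivalent of 10 counts in a library of median size in at least 3 libraries were kept, and tested with edgeR 4.0.16 (TMM, robust quasi-likelihood) in R 4.3.3, all 6 time points in 1 fit per organ, with DESeq2 1.42.0 beside it. Correlations and organ differences used log2 CPM with a pseudocount of 0.5 and 100000 two-sided permutations in Python 3.11.15 with scipy 1.17.1. Exon lengths and positions came from Gencode M21. The edgeR step was tested on simulated data. Alternatives were DESeq2, other scaling, filter and pseudocounts, all libraries, a replicate block, a lane factor and leaving out each library.

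Named genes were all 9 members, of each gene list up to 4 genes with the smallest adjusted p in the late comparison, the most abundant gene of each marker list, and for each member the 3 genes with the highest r. Members and lists were chosen with earlier results of these data known.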

Additional observations from a re-analysis of the deposited data

Results flagged for a closer look

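Each of these values comes from a library that was left out for its low total and was singled out because it lay above every library of 0 h of that organ. Tff2 in replicate 3 of 8 h in BRN stood at 230 CPM, from 30 of 130701 counts, where the highest at 0 h was 0.104 CPM. Gkn3 in replicate 1 of 22 h in iBAT stood at 15.6 CPM, from 42 counts, where the highest at 0 h was 1.36 CPM. Muc1 in the same iBAT library stood at 2.96 CPM, from 8 counts, against 0.308 CPM. Muc1 in replicate 2 of 22 h in psWAT stood at 2.72 CPM, from 8 counts, against 2.50 CPM. Each single value was not tested against its group, and groups of 3 were not tested for outliers. With all left-out libraries put back, which in BRN included replicate 1 of 18 h, the joint test (edgeR) called Tff2 in BRN (adjusted p = 0.0250). In that fit of BRN 7 of 16675 genes and 1 of 4 members tested were called. Tff2 in BRN was not tested without the left-out libraries. It was singled out for its high value in a restored library, so the call is not independent of that choice. The same joint test did not call Gkn3 (0.125) or Muc1 (0.488) in iBAT or Muc1 in psWAT (0.334).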

How the results depend on the processing

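No called log2 fold change was reversed by another setting. The share of genes called in the joint test in STM, 6.55%, became 17.2% by DESeq2, 0% with lane as a factor and 0.768% with the near-identical 18 h libraries summed, and 0.701 to 10.7% when 1 library was left out. The 2 members called there became 0 without the filter, 0 with lane, 0 when summed and 0 to 3 when 1 library was left out. For 18 and 22 h against 0 h, 1155 genes became 0 with lane, 2492 on adjusted p alone and 283 to 1849 when 1 library was left out. The 4 members called there became 2 without the filter, 2 with all 18 libraries, 0 with lane, 2 when summed and 2 to 6 when 1 library was left out. DESeq2 called 2 genes at 8 and 12 h and 2 at 2 h, and leaving out 1 library gave 0 to 7 and 0 to 5. A replicate block gave 718 joint and 1077 late calls, and replicate numbers do not pair mice across times (mean correlation of 40 same-number pairs 0.0021, lowest −0.263). The 2 member calls in other organs became 1 with that block and 1 without the 3 libraries that hold stomach transcripts. With all libraries of each organ they stayed 2, but Gkn3 in iBAT lost its call (adjusted p = 0.125). Tff2 in BRN, not tested in the main fit, was then called (0.0250), and the genes called in psWAT went from 0 to 370. The member calls stayed 2 with lane as a factor in OB and LIV. The 1 organ difference became 0 with a pseudocount of 1 CPM. By DESeq2 the joint calls over all genes were 1577 in BRN against 1, 212 in BST against 18, 1771 in CBL against 477 and 3585 in LIV against 2244. Summing the 18 h pair, leaving out those 3 libraries and the lane factor in OB and LIV were chosen after seeing the data. The cause of these shifts was not tested.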
